A study of Mus musculus with 2 samples.

Results

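The gene set described here holds 47 of the 32285 genes in the count tables, chosen by symbol because they mark the phases of the cell cycle. They fall into 6 groups: 5 G1 cyclins and kinases, 6 G1/S regulators, 16 replication genes, 4 mitotic cyclins and *Cdk1*, 10 mitosis genes and 6 cytokinesis genes. Nuclei with 5 or more unique molecular identifiers (UMIs, counts of captured transcripts) of *Top2a*, *Mki67*, *Cenpf*, *Prc1*, *Kif11*, *Kif15* and *Knl1* were set apart and are called gated nuclei. The gate used these 7 members, so their values in gated nuclei only describe the selection, and the other 40 members did not take part in it.

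Cells leave quiescence through D-type cyclins, which activate *Cdk4* and *Cdk6* and release E2F transcription factors from the retinoblastoma protein. E2F factors then switch on the genes for origin licensing, nucleotide supply and DNA synthesis, and a later programme of mitotic cyclins, kinesins and kinetochore proteins divides the chromosomes and the cell. Adult hepatocytes are mostly quiescent and often polyploid, and can re-enter the cycle after injury or loss of tissue.

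Single-nucleus RNA-seq was performed on livers of male C57BL6/J mice with diet-induced metabolic dysfunction-associated steatohepatitis (MASH). The mice were 10 to 12 weeks old when they began 5 months on a diet with 40% of energy from fat, 20% from fructose and 2% cholesterol. The library labelled Flox came from *Themis* flox/flox mice and the library labelled HKO from *Themis* Alb-Cre mice, in which the albumin promoter drives Cre in hepatocytes. Liver tissue of 4 mice was pooled for each library, so there was 1 library per genotype, no replicate and no test. Intervals are exact 95% intervals that cover counting error only. A difference between the libraries cannot be told apart from a difference between the mice pooled or between the preparations.

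The library labelled Flox held 9363 barcodes with a median of 6216 UMIs, and the library labelled HKO held 10748 with a median of 2227.5. After filters on genes and doublets, 8659 and 9801 nuclei remained, and 27 barcodes were shared between the libraries. Cell types were called from marker UMIs, and all 15 hepatocyte markers together reached 12543 and 13099.6 CPM (counts of a gene scaled to the total of the nuclei summed) in hepatocytes outside the gate. *Themis*, the deleted gene, was at 166 CPM (161–171) in Flox hepatocytes and at 250 CPM (243–258) in HKO hepatocytes, which is higher, not lower, in the library labelled HKO. It was also higher there in T and NK nuclei, at 278 CPM (200–376) and 398 CPM (304–512), Flox before HKO. In endothelial nuclei it was at 1.76 and 9.25 CPM (2 and 12 UMIs). The counts are of whole-gene exonic UMIs and do not show whether a floxed exon is present. Every direction below is therefore given for the library labelled HKO, not for loss of *Themis*.

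Gated nuclei numbered 71 of 8659 (0.820%, 0.641–1.03%) in the library labelled Flox and 135 of 9801 (1.38%, 1.16–1.63%) in the library labelled HKO, a ratio of 1.68 (1.25–2.27). Without *Top2a* and *Mki67* in the gate list they numbered 60 and 94, a ratio of 1.38 whose interval held 1 (0.991–1.95). The gate lay in a sparse stretch of the counts. In the library labelled Flox, 13 nuclei had 3 gate UMIs, 10 had 4, 4 had 5 and 51 had 10 or more. In the library labelled HKO the same counts were 23, 9, 13 and 98.

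Over both libraries and all cell types, 35 of the 40 members outside the gate list were at least 1.5-fold higher in gated nuclei and 1, *Cdk6*, was at least 1.5-fold lower, beside 30.9% of all genes with 50 or more UMIs that were higher by that fold. *Neil3*, *Ccnb1*, *Cdk1* and *Bub1* reached 50 UMIs only through the gated nuclei, where they were high, so their place in that count was fixed by the filter. Of the 36 members with 50 or more UMIs outside the gate, 31 were higher, beside 30.6% of all genes, and 1 was lower. The share of all genes that were lower was not counted. The median fold was 12.7 over all 40 and 11.8 over these 36. The group medians that follow are over all 40 and keep *Neil3*, *Ccnb1*, *Cdk1* and *Bub1*, so they describe the gated nuclei only. The 5 G1 cyclins and kinases had a median of 1.25, the 6 G1/S regulators 10.8, the 16 replication genes 11.1, the 4 mitotic cyclins and *Cdk1* 86.6, the 4 mitosis genes outside the gate list 155 and the 5 cytokinesis genes outside it 159. The gate genes are themselves mitosis and cytokinesis genes, so the nuclei were selected on the late groups. Their part in the order of these medians was not tested. Gated nuclei held 0.377% of the UMIs of hepatocytes, 5.10% of those of macrophages and 3.11% of those of endothelial nuclei. The folds over all cell types, here and below, thus set nuclei of unlike cell type make-up against each other. The part of that make-up in the folds was not tested.

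**Figure D1:**
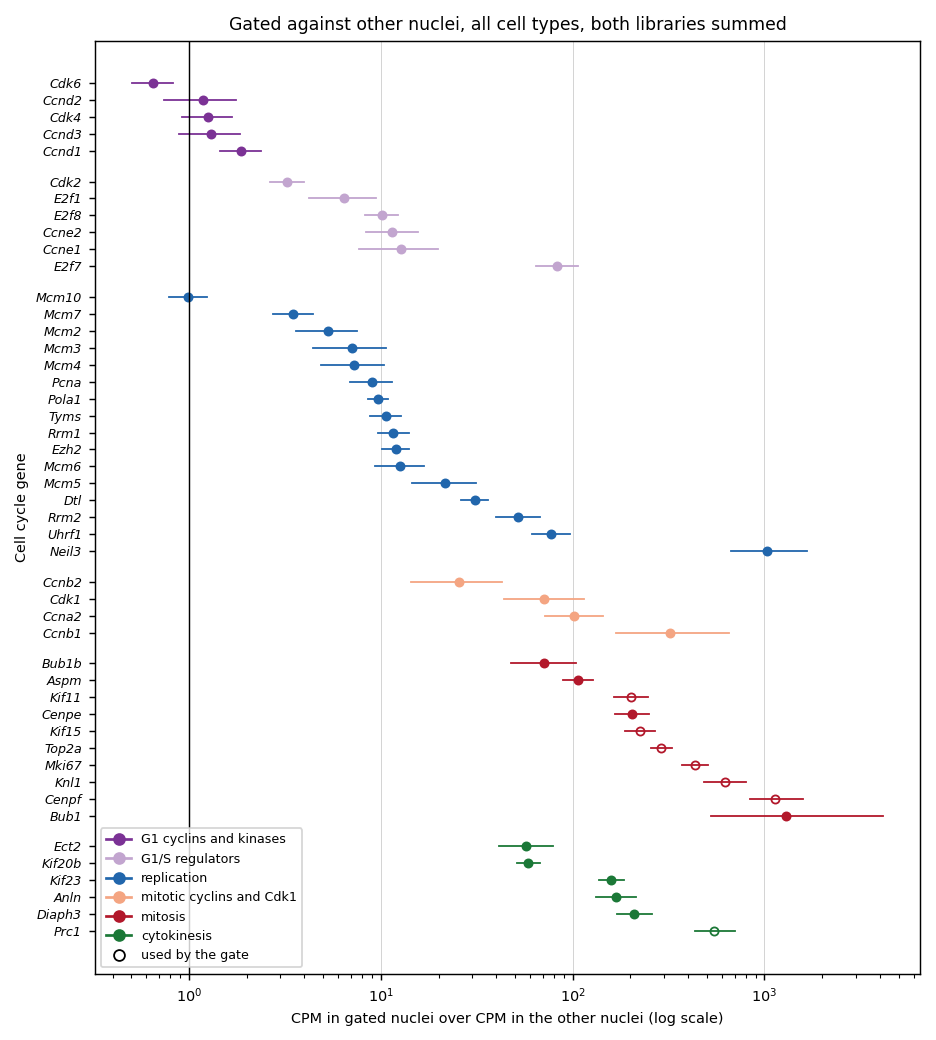
CPM in gated nuclei divided by CPM in the other nuclei for the 47 genes (log axis; points, ratios; lines, 95% counting intervals; open points, the 7 gate genes), both libraries and all cell types summed. The G1 group and *Mcm10* sit near 1, the other replication genes from 3.49 to 77.2 except *Neil3* at 1034, and the mitosis and cytokinesis genes at 57.0 or more.

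The G1 genes marked gated nuclei least. *Ccnd1*, the cyclin that links growth signals to G1 entry, was at 85.0 CPM in gated nuclei and 45.5 CPM in the others (1.87-fold, 1.45–2.37). *Cdk6*, a kinase partner of the D cyclins, was at 86.2 and 133 CPM (0.650-fold, 0.506–0.822). *Ccnd2*, *Ccnd3* and *Cdk4* had folds of 1.18, 1.30 and 1.25 with intervals that held 1. At most 1.75% of the UMIs of a G1 gene lay in gated nuclei, which held 0.946% of all UMIs.

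The G1/S regulators were all higher in gated nuclei, from 3.26-fold for *Cdk2*, the kinase that pairs with cyclin E, to 83.4-fold for *E2f7*, an E2F family member that represses transcription. The cyclin E genes *Ccne1* and *Ccne2* reached 12.7-fold and 11.5-fold, *E2f1*, an activating E2F, 6.47-fold, and *E2f8*, the second atypical repressor, 10.2-fold. *E2f7* held 44.3% of its UMIs in gated nuclei and *Cdk2* 3.02%. The share inside the gate thus differed widely between these regulators, over all cell types summed. *E2f7* stood at 14.2-fold within endothelial nuclei, which held 99 of its 142 UMIs outside the gate.

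Among the replication genes, 15 of 16 were at least 1.5-fold higher in gated nuclei, beside 30.9% of all genes with 50 or more UMIs. The 15 include *Neil3*, which reached 50 UMIs only through the gated nuclei, so its place among them was fixed by the filter and its fold is a description only. *Neil3*, a DNA glycosylase that repairs crosslinks at forks, was at 280 CPM in gated nuclei and 0.270 CPM in the others (1034-fold, 672–1664), and 90.8% of its UMIs lay in gated nuclei. *Uhrf1*, which carries DNA methylation through replication, reached 77.2-fold, *Rrm2*, the cycling subunit of ribonucleotide reductase, 52.1-fold, and *Dtl*, an adaptor of a ubiquitin ligase at replicating DNA, 31.0-fold. The replicative helicase genes ran from *Mcm5* at 21.6-fold through *Mcm6* at 12.6-fold, *Mcm4* at 7.27-fold, *Mcm3* at 7.04-fold and *Mcm2* at 5.29-fold to *Mcm7* at 3.49-fold. *Ezh2*, a histone methyltransferase, stood at 12.0-fold, *Rrm1*, the large reductase subunit, at 11.6-fold and *Tyms*, thymidylate synthase, at 10.6-fold. *Pola1*, the catalytic subunit of the primase polymerase, reached 9.68-fold and *Pcna*, the sliding clamp, 8.99-fold.

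*Mcm10*, which loads polymerase onto the opened origin, was the exception. It was at 101 CPM in gated nuclei and at 102 CPM in the others (0.994-fold, 0.790–1.24). Gated nuclei held 0.940% of its UMIs, close to their 0.946% of all UMIs.

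The mitotic cyclins and *Cdk1*, their kinase, were rare everywhere and concentrated in gated nuclei. *Ccnb1* had 40 UMIs in gated nuclei and 13 in all others (322-fold, 169–657), *Ccna2* 69 and 71 (102-fold, 72.0–144), *Cdk1* 32 and 47 (71.3-fold, 44.0–114) and *Ccnb2* 18 and 74 (25.5-fold, 14.3–43.1). *Ccnb1* and *Ccnb2* thus differed in the share of UMIs inside the gate, at 75.5% and 19.6%.

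Of the mitosis genes outside the gate list, *Bub1*, a spindle checkpoint kinase, had 62 UMIs in gated nuclei and 5 in all others (1299-fold, 528–4140.3). *Cenpe*, a kinetochore motor, reached 204-fold, *Aspm*, which organises spindle poles, 107-fold and *Bub1b*, a checkpoint protein, 70.8-fold. Of the cytokinesis genes, *Diaph3*, an actin-nucleating formin, reached 210-fold, *Anln*, a scaffold of the cleavage furrow, 168-fold, *Kif23*, a motor of the central spindle, 159-fold, *Kif20b*, a midzone kinesin, 58.8-fold and *Ect2*, which activates RhoA at the furrow, 57.0-fold. For description, the 7 gate genes had folds from 201 for *Kif11*, the bipolar spindle kinesin, to 1138 for *Cenpf*, a kinetochore protein. *Top2a*, the topoisomerase that untangles chromosomes, stood at 289, *Kif15*, a spindle kinesin, at 224, *Mki67*, the coat of mitotic chromosomes, at 432, *Prc1*, the midzone bundler, at 548 and *Knl1*, a kinetochore scaffold, at 620.

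Promoter windows of the late groups and of the replication group held different motifs. RefSeq promoter windows (GRCm38.p6, 250 bases before to 50 after the start, the first window listed for each symbol) were at hand for 42 of the 47 members, all but *Ccnd1*, *Ccnd2*, *Ccne2*, *Mcm4* and *Ccna2*. Searched on both strands were the cell cycle genes homology region (CHR, TTTGAA or TTCGAA), E2F sites (TTTCCCGC or TTTGGCGC) and the CCAAT box (ATTGG, read in reverse as CCAAT), and none of these motifs lies within another. Over all 27025 symbols, 19.4% of windows held a CHR, 1.63% an E2F site and 37.9% a CCAAT box. A CHR was present in 9 of 10 mitosis windows, 5 of 6 cytokinesis windows and 2 of 3 windows of *Ccnb1*, *Ccnb2* and *Cdk1*, but in 3 of 15 replication windows. An E2F site was present in 7 of 15 replication windows, 2 of 5 G1/S windows and 1 of 19 windows of the late groups. A CCAAT box was present in 13 of 15 replication windows and 15 of 19 late ones, so it was common to both. The 3 G1 windows (*Ccnd3*, *Cdk4*, *Cdk6*) held none of the motifs. These matches describe letters in a window and are not sites of known binding. Shown are 2 late genes with a CHR, 2 helicase genes with an E2F site and *Mcm10*, with all 3 kinds of motif in capitals. *Bub1* lies at chr2:127831810-127832109, *Ccnb2* at chr9:70421505-70421804, *Mcm6* at chr1:128359656-128359955 and *Mcm10* at chr2:5012742-5013041, all on the minus strand, and *Mcm5* at chr8:75109259-75109558 on the plus strand.
Bub1: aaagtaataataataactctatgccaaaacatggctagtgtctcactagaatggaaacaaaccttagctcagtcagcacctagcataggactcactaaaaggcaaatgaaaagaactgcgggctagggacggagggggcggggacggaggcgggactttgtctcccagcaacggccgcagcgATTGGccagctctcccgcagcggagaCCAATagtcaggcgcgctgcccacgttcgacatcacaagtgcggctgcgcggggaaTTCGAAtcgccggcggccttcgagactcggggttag
Ccnb2: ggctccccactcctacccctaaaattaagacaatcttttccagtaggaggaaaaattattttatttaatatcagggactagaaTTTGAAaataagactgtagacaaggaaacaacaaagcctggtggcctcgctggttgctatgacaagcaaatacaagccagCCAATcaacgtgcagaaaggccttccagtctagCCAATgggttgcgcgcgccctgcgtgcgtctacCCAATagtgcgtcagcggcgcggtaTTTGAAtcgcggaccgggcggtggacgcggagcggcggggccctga
Mcm6: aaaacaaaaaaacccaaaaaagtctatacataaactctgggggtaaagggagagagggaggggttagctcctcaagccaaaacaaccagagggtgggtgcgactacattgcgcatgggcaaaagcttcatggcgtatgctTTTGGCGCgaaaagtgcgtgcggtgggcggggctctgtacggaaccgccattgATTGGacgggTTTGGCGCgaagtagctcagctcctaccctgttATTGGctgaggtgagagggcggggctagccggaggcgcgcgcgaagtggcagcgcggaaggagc
Mcm5: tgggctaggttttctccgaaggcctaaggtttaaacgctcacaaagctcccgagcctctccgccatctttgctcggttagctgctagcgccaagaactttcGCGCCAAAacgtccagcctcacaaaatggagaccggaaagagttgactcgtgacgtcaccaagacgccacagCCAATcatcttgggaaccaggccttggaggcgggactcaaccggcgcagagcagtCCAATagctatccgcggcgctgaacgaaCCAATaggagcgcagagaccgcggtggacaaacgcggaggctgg
Mcm10: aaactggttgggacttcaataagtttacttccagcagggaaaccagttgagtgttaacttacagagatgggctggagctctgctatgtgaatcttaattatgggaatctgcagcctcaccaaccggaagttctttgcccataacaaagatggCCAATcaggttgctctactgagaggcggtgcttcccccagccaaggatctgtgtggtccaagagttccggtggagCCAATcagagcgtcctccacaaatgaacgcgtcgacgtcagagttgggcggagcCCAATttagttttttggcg
The *Bub1* window held a CHR and 2 CCAAT boxes, and the *Ccnb2* window held 2 CHRs and 3 CCAAT boxes. The *Mcm6* window held 2 E2F sites and the *Mcm5* window 1, each beside CCAAT boxes. The *Mcm10* window held 3 CCAAT boxes, no CHR and no full E2F site of those searched. It ends in TTTGGCG, which is the E2F site TTTGGCGC without its last letter. The window edge cuts that stretch, so the search could not decide whether *Mcm10* has this site.

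Gated nuclei were uneven across cell types. In hepatocytes they numbered 9 of 3858 (0.233%, 0.107–0.442%) in the library labelled Flox and 20 of 3314 (0.604%, 0.369–0.931%) in the library labelled HKO, a ratio of 2.59 (1.13–6.45). Without *Top2a* and *Mki67* in the gate list the numbers were 8 and 10, a ratio of 1.46 (0.517–4.24). In macrophages they numbered 20 of 610 (3.28%) and 48 of 1489 (3.22%), a ratio of 0.983 (0.573–1.75). In endothelial nuclei they numbered 9 of 783 (1.15%) and 29 of 1248 (2.32%), a ratio of 2.02 (0.932–4.85). Hepatic stellate cells (HSCs) had 7 of 822 and 3 of 1167, cholangiocytes 1 of 117 and 3 of 415, T and NK nuclei 5 of 129 and 3 of 181, and B nuclei 0 of 66 and 0 of 68, which allows shares of up to 4.55% and 4.41% by a limit of 3 nuclei (exact upper bounds 5.44% and 5.28%).

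A fixed number of UMIs is easier to reach in deep nuclei, and median UMIs were 6985.5 and 5521 in hepatocytes but 2065 and 1360 in macrophages and 1331 and 962 in endothelial nuclei, Flox before HKO. After thinning each nucleus to 1000 UMIs and taking 2 or more gate UMIs, 0.13% and 0.488% of hepatocytes passed, a ratio of 3.74 (1.31–13.1). In endothelial nuclei 1.79% and 5.40% passed (3.02, 1.5–6.48) and in macrophages 3.41% and 4.40% (1.29, 0.756–2.28), with 692 endothelial and 307 macrophage nuclei of the library labelled HKO too shallow to count. Hepatocytes were called only where no other type had more than 1 marker UMI, which drops deep nuclei. A rule relative to the hepatocyte marker UMIs, added after seeing the data, gave 17 of 5830 and 36 of 4443 gated hepatocytes (ratio 2.78, 1.52–5.28).

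**Figure D2:**
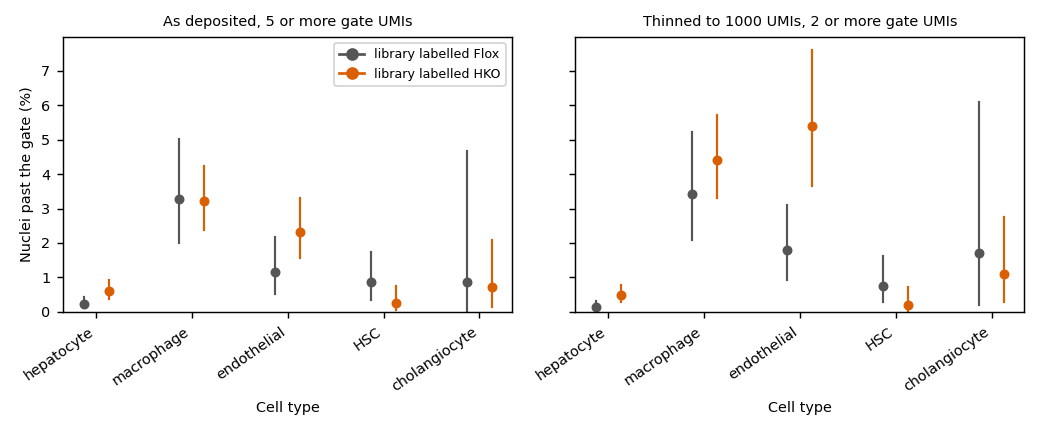
Percent of nuclei past the gate by cell type and library, as deposited (left, 5 or more gate UMIs) and after thinning to 1000 UMIs (right, 2 or more), with exact 95% intervals as lines. Of the 5 types plotted, hepatocytes lie lowest in both panels apart from HSCs of the library labelled HKO, and macrophages are close between libraries while the endothelial HKO point lies above the Flox point.

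Gated hepatocytes carried mostly replication transcripts, and gated macrophages and endothelial nuclei mostly mitotic ones. UMIs of the 16 replication genes were set against those of the 13 mitosis, cytokinesis and mitotic cyclin or *Cdk1* genes outside the gate list. Replication genes held 69.3% of these UMIs in gated hepatocytes (65.1–73.2, 29 nuclei), 40.0% in gated macrophages (37.3–42.7, 68 nuclei) and 31.8% in gated endothelial nuclei (28.2–35.7, 38 nuclei). More replication than mitosis UMIs were found in 21 of 29 hepatocytes, 26 of 68 macrophages and 12 of 38 endothelial nuclei. UMIs of a nucleus are not independent, so the intervals of the UMI shares are too narrow. Gated hepatocytes also had fewer gate UMIs, with medians of 7 and 6.5 against 24.0 and 13.0 in macrophages and 25.0 and 16 in endothelial nuclei. Among nuclei with 10 or more gate UMIs the replication share was 59.1% in 10 hepatocytes, 35% in 51 macrophages and 29.4% in 32 endothelial nuclei. Under the relative rule it was 69.5% in 53 hepatocytes.

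**Figure D3:**
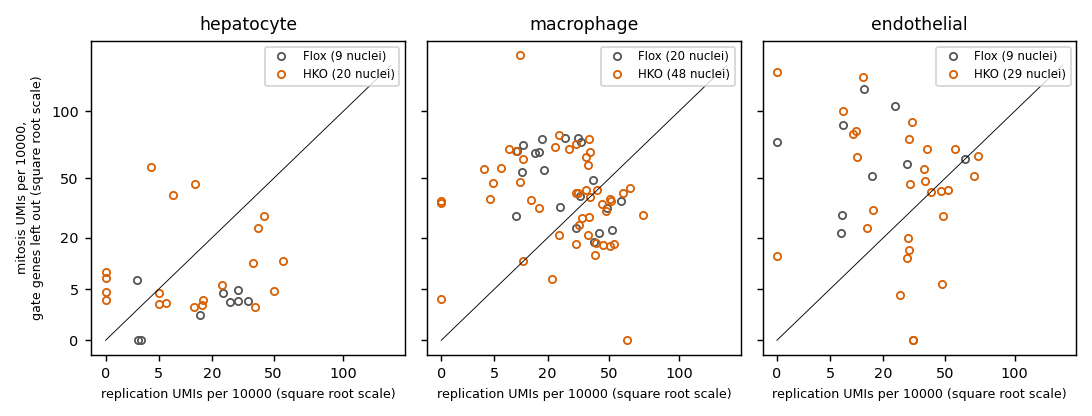
Replication UMIs (x) against mitosis UMIs without the gate genes (y), both per 10000 UMIs of the nucleus on square root axes, for each gated nucleus, with the line of equal values. Hepatocytes lie mostly under the line, with 21 of 29 holding more replication UMIs, and macrophages and endothelial nuclei mostly above it.

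The libraries differed in the mitotic part of gated hepatocytes. Summed replication CPM was 2084 (1733–2484) in 9 nuclei of the library labelled Flox and 2012 (1761–2288) in 20 of the library labelled HKO. Summed CPM of the 9 mitosis and cytokinesis genes outside the gate list was 286 (166–457) and 1101 (918–1310.4), a ratio of 3.86 (2.32–6.83). UMIs of a nucleus are not independent here either, so the intervals of these sums and ratios are too narrow. *Ccna2*, *Ccnb1*, *Ccnb2* and *Cdk1* together had 0 UMIs in the gated Flox hepatocytes, which allows up to 3 UMIs, and 14 in those of the library labelled HKO. With *Cdk1* and the cyclins included, the sum was 286 CPM in all gated Flox hepatocytes and 1223 CPM in those of the library labelled HKO. The 5 HKO nuclei with the most of these UMIs held 102 of 141 and left 461 CPM in the other 15. The 5 Flox nuclei with the most, a larger part of 9 nuclei than 5 are of 20, held 14 of 17 and left 120 CPM (3 UMIs) in the other 4. The sum in the library labelled HKO thus rests largely on 5 nuclei. In gated macrophages the same mitosis and cytokinesis sum was 4763 and 3716 CPM, and in gated endothelial nuclei 6089.7 and 4592 CPM, in each case lower in the library labelled HKO. Replication genes summed to 1698 and 2945 CPM in gated endothelial nuclei (1.73, 1.22–2.51) and to 2861 and 2985 CPM in gated macrophages (1.04, 0.872–1.25).

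Gated nuclei were also set against the other nuclei within each type. The share of all genes that were lower was not counted, so the counts of lower members stand without a background. In hepatocytes 27 of the 40 members had 50 or more UMIs outside the gate, and 24 of them were at least 1.5-fold higher in gated nuclei and 0 lower, beside 23.7% of all genes that were higher. *Ccnd1* was at 97.2 CPM in gated and 38.7 CPM in other hepatocytes (2.51-fold, 1.46–4.03), *Uhrf1* reached 125-fold and *Mcm10* was at 114 CPM in both (1.0-fold, 0.611–1.55). In macrophages 11 of 15 members with 50 UMIs outside the gate were higher and 4 lower (13.9% of all genes higher), the 4 being *Ccnd1* at 44.4 against 73.8 CPM, *Ccnd2* at 5.55 against 17.9, *Ccnd3* at 22.2 against 48.7 and *Cdk6* at 44.4 against 122, of which only the interval of *Cdk6* left out 1. *Mcm10* in macrophages, with 23 UMIs in gated and 43 in other nuclei, was at 128 and 12.8 CPM (9.95-fold, 5.72–16.9). It fell short of 50 UMIs outside the gate, so it was not among the 15 and its fold is a description only. In endothelial nuclei 7 of 11 were higher and 2 lower (18.4% of all genes higher), with *Ccnd2* at 66.0 against 228 CPM (0.290-fold, 0.0938–0.681) and *E2f7* at 594 against 41.9 (14.2-fold, 9.73–20.3). The *Mcm10* folds in hepatocytes and macrophages were not compared, because the macrophage fold did not pass the filter.

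Outside the gate, 30 of the 47 members had 50 or more UMIs in hepatocytes, of which 10 were at least 1.5-fold higher in the library labelled HKO (33.3%, beside 8.81% of 12457 genes) and 3 at least 1.5-fold lower (10.0%, beside 12.2%). The counts use plain CPM ratios and were 3 and 1 with a pseudocount of 5 CPM and 4 and 0 at 2-fold. At those settings no share of all genes was counted. With the pseudocount of 1 CPM, *Mcm3*, *Rrm2* and *Top2a* had log2 ratios of 0.47, 0.54 and 0.51, under the log2 of 1.5-fold. The median log2 ratio, on log2(CPM + 1), was 0.17 over these 30 and 0.17 over all 47, beside −0.03 over all 12457 genes. Markers of the other 9 types summed to 176 CPM in Flox and 193 CPM in HKO hepatocytes over 98 genes, with 19 and 13 of them at 0, and their part in the differences was not tested.

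**Figure D4:**
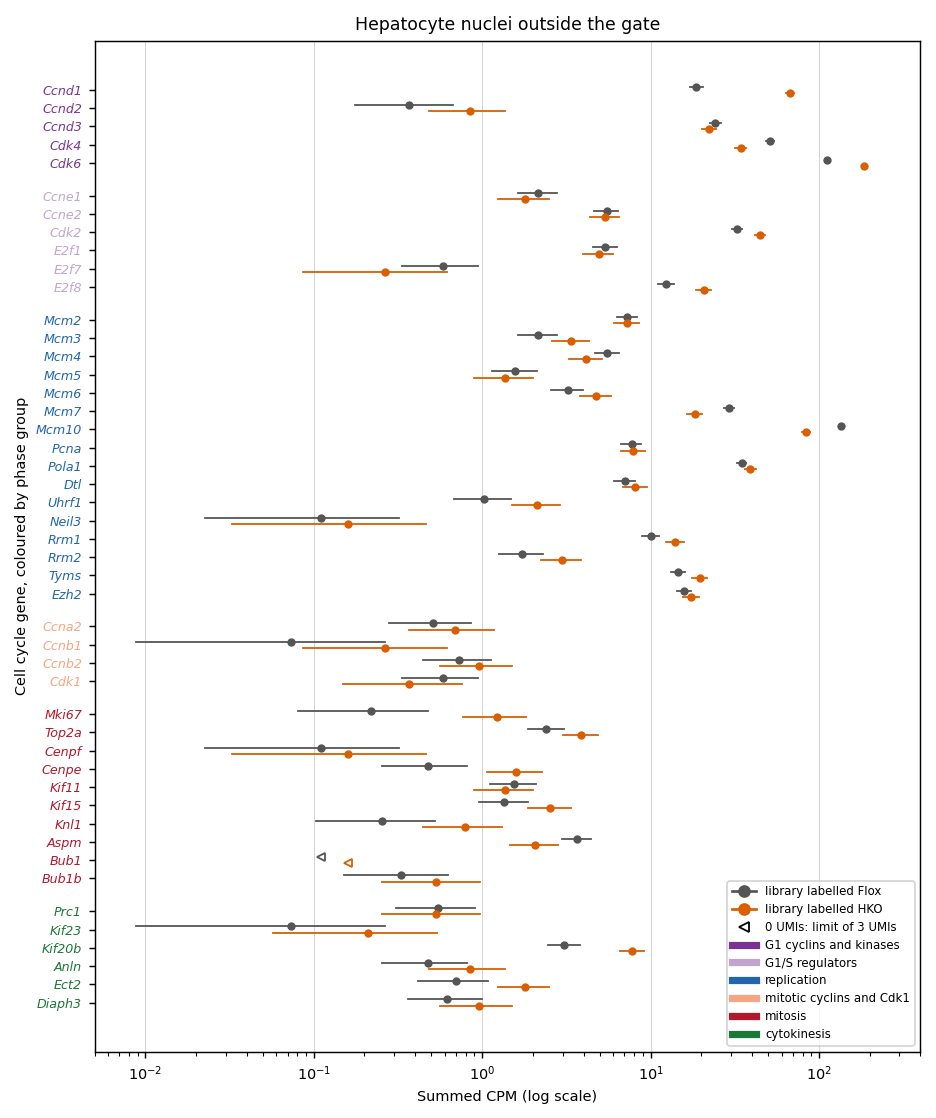
Summed CPM (log axis) of each gene in hepatocyte nuclei outside the gate, in the library labelled Flox (grey) and HKO (orange), with exact 95% Poisson intervals and open triangles at the limit of 3 UMIs where no UMI was counted. *Ccnd1*, *Cdk6*, *E2f8* and *Kif20b* lie to the right in the library labelled HKO, and *Mcm7* and *Mcm10* to the left.

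Of the G1 genes, *Ccnd1* (chr7:144929931-144939925, minus strand, GRCm38) differed most. It was at 18.7 CPM (17.1–20.4, 511 UMIs) in the library labelled Flox and 67.7 CPM (64.0–71.5, 1280 UMIs) in the library labelled HKO, a ratio of 3.62 (3.26–4.02). UMIs were found in 8.96% of 3849 Flox and 20.9% of 3294 HKO hepatocytes, and the 10 nuclei with the most held 9.98% and 6.09% of them, so the difference was spread over many nuclei. Thinned to 1000 UMIs, 2.14% and 5.89% of hepatocytes had a *Ccnd1* UMI, beside 7.69% and 9.26% of endothelial nuclei. *Cdk6* (chr5:3341485-3531008, plus strand) was at 112 CPM (108–116) and 186 CPM (180–192), a ratio of 1.66 (1.58–1.74). *Cdk4* was at 51.1 and 34.3 CPM, a ratio of 0.672 (0.611–0.738) just inside the 1.5-fold line, and *Ccnd3*, the D cyclin of many blood cells, was at 24.2 and 22.2 CPM (0.918, 0.811–1.04). *Cdk4* and *Cdk6*, which pair with the same cyclins, thus lay on opposite sides.

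Of the G1/S regulators, *E2f8* (chr7:48866429-48881596, minus strand) was at 12.4 CPM (11.1–13.8) and 20.7 CPM (18.7–22.8), a ratio of 1.67 (1.44–1.94). *Cdk2* was at 32.7 and 44.6 CPM (1.36, 1.24–1.5). *Ccne1*, *Ccne2* and *E2f1* had ratios of 0.833, 0.973 and 0.914 with intervals that held 1. The activating *E2f1* and the repressing *E2f8* therefore differed in ratio.

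The replication group was mixed. *Uhrf1* was at 1.02 and 2.11 CPM (2.06, 1.24–3.48), *Rrm2* at 1.72 and 2.96 CPM (1.72, 1.15–2.59) and *Mcm3* at 2.16 and 3.38 CPM (1.57, 1.08–2.27). *Mcm10* (chr2:4989714-5012791, minus strand) was at 135 CPM (131–140) and 83.8 CPM (79.7–88.0), a ratio of 0.619 (0.583–0.657), and *Mcm7* (chr5:138164583-138172422, minus strand) at 29.2 CPM (27.2–31.3) and 18.3 CPM (16.4–20.3), a ratio of 0.627 (0.551–0.712). The other 10 with enough UMIs stayed within 1.5-fold, from 0.747 for *Mcm4* to 1.48 for *Mcm6*, and the intervals of *Mcm2*, *Mcm5*, *Pcna*, *Dtl* and *Ezh2* held 1. Among these, *Pola1* was at 34.8 and 39.1 CPM and *Pcna* at 7.72 and 7.88 CPM, while *Rrm1* (1.40, 1.18–1.67) and *Tyms* (1.34, 1.16–1.54) were higher in the library labelled HKO by less than the fold. The summed replication CPM was 277 and 234 (0.845, 0.814–0.877), and without *Mcm10* 142 and 150 (1.06, 1.01–1.11), so that 1 gene set the direction of the sum.

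Late genes were scarce in hepatocytes outside the gate. *Kif20b* was at 3.07 CPM (2.45–3.80) and 7.77 CPM (6.57–9.13), a ratio of 2.53 (1.92–3.35), and *Ect2* at 0.695 and 1.80 CPM (2.59, 1.43–4.80). *Kif15* was at 1.35 and 2.54 CPM (1.87, 1.2–2.96) and *Top2a* at 2.41 and 3.86 CPM (1.60, 1.13–2.26). *Aspm* was at 3.66 and 2.06 CPM (0.564, 0.379–0.824) and *Kif11* at 1.54 and 1.37 CPM (0.895, 0.527–1.49). The gate caps *Top2a*, *Kif15* and *Kif11* in these nuclei, since any with 5 or more gate UMIs was removed. Late genes with a CHR in their window stood on both sides, *Kif20b* and *Ect2* higher and *Aspm* lower.

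The other 17 members had under 50 UMIs in hepatocytes outside the gate, among them all 4 mitotic cyclins and *Cdk1*. *Ccna2* had 14 and 13 UMIs, *Ccnb1* 2 and 5, *Ccnb2* 20 and 18, and *Cdk1* 16 and 7, each with an interval of the ratio that held 1. *Mki67* had 6 and 23 UMIs (0.219 and 1.22 CPM), *Cenpe* 13 and 30 (0.476 and 1.59 CPM) and *Knl1* 7 and 15 (0.256 and 0.793 CPM), with intervals of 2.19–16.6, 1.69–6.97 and 1.19–8.98 around their ratios. *Bub1* had 0 in both libraries, which allows up to 3 UMIs in each. The rest were *Ccnd2*, *E2f7*, *Neil3*, *Cenpf*, *Bub1b*, *Prc1*, *Kif23*, *Anln* and *Diaph3*, with 6 to 35 UMIs over both libraries.

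A wider list of 65 further cell cycle genes gave a smaller share in the same nuclei. With 50 or more UMIs were 39, of which 6 were higher by 1.5-fold in the library labelled HKO (15.4%, beside 8.81% of all genes) and 3 lower (7.69%, beside 12.2%). The 3 highest were *Lig1*, the ligase that joins nascent fragments, at 1.35 and 3.91 CPM, *Mad2l1*, a spindle checkpoint gene, at 3.11 and 6.87 CPM, and *Clspn*, a replication checkpoint gene, at 1.5 and 3.44 CPM. The 3 lowest were *Birc5*, a subunit of the chromosomal passenger complex, at 6.58 and 3.44 CPM, *Cks1b*, a small subunit of Cdk complexes, at 7.90 and 4.39 CPM, and *E2f5*, a repressing E2F, at 9.95 and 6.61 CPM. Of 18 replication genes 15 had 50 or more UMIs, with 4 higher and 0 lower, of 30 mitosis genes 11, with 2 higher and 1 lower, and of 17 regulators 13, with 0 higher and 2 lower.

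Outside the gate the levels of the members differed by cell type, and each D cyclin had its own order of types. *Ccnd1* was at 264 CPM (231–300) in cholangiocytes, 96.6 (84.5–110) in endothelial nuclei, 73.8 (64.9–83.6) in macrophages, 38.7 (36.9–40.6) in hepatocytes, 35.4 (29.3–42.5) in HSCs, 17.7 (2.14–63.9) in B nuclei and 10.5 (2.17–30.8) in T and NK nuclei, both libraries pooled. This pooled order did not hold in each library, since hepatocytes were at 18.7 and 67.7 CPM, macrophages at 102 and 56.7 CPM and HSCs at 29.4 and 40.7 CPM, Flox before HKO. *Ccnd2* ran from 796 CPM (696–907) in T and NK nuclei through 296 in cholangiocytes, 228 in endothelial nuclei, 192 in HSCs, 106 in B nuclei and 17.9 in macrophages to 0.562 (0.367–0.824) in hepatocytes. *Ccnd3* was at 393 CPM (324–473) in T and NK nuclei, 221 (143–327) in B nuclei and 23.4 (22.0–24.8) in hepatocytes. *Cdk4* was highest in endothelial nuclei (87.3 CPM, 75.8–100) and *Cdk6* in T and NK nuclei (207 CPM, 158–267), ahead of hepatocytes (142 CPM, 139–146).

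**Figure D5:**
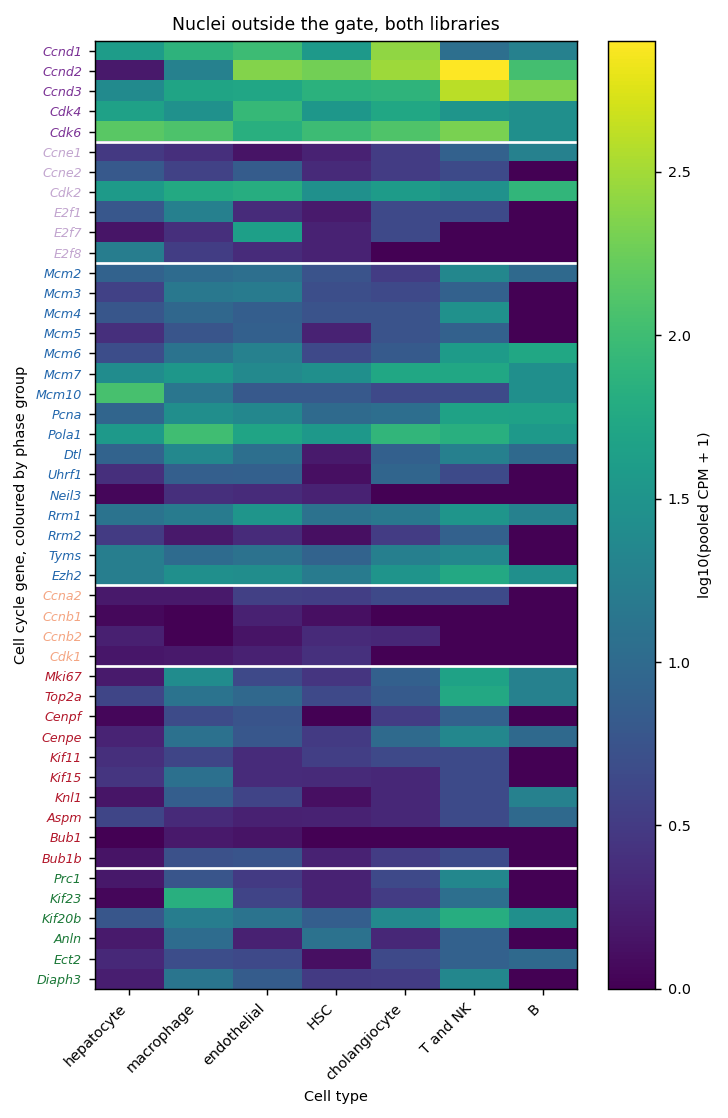
Pooled CPM outside the gate, as log10(CPM + 1), of the 47 genes (rows, grouped by phase) in 7 cell types (columns). *Ccnd2* is high in T and NK nuclei and near 0 in hepatocytes, *Mcm10* and *E2f8* stand out in hepatocytes, *E2f7* in endothelial nuclei and *Kif23* in macrophages.

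The atypical repressors *E2f7* and *E2f8* were divided between cell types. *E2f8* was at 15.8 CPM (14.6–16.9) in hepatocytes and 2.39 (1.03–4.71) in macrophages, the next type. *E2f7* was at 41.9 CPM (34.1–51.1) in endothelial nuclei and 0.454 (0.281–0.694) in hepatocytes. *E2f1* was at 17.3 CPM (13.2–22.4) in macrophages and 5.19 (4.55–5.89) in hepatocytes. *Mcm10* was at 114 CPM (111–117) in hepatocytes, with the next type with more than 10 UMIs at 12.8 (9.30–17.3) in macrophages. These members were among 9 of 47 whose highest type had an interval above that of the next, and the highest type was the same in both libraries for 22 of 47. The same counts were not made over all genes, so these numbers say nothing particular about cell cycle genes.

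In macrophages outside the gate 16 members had 50 or more UMIs, 3 higher by 1.5-fold in the library labelled HKO (18.8%, beside 5.24% of 7883 genes) and 3 lower (18.8%, beside 11.8%). *Kif23* (chr9:61915905-61946774, minus strand) was at 126 CPM (160 UMIs) and 29.8 CPM (62 UMIs), a ratio of 0.236 (0.173–0.318). *Ccnd1* was at 102 and 56.7 CPM (0.557, 0.430–0.721) and *Pola1* at 75.8 and 116 CPM (1.54, 1.21–1.97). The intervals of *Ccnd2* (1.67), *Kif20b* (1.87) and *Mki67* (0.655) held 1. *Cdk6* was at 102 and 134 CPM (1.31, 1.06–1.63), *Cdk2* at 52.9 and 60.1 CPM (1.14, 0.838–1.55) and *Ccna2* had 1 UMI in each library.

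*Kif23* was also read in macrophages split by Kupffer transcripts. In nuclei with 2 or more UMIs of *Clec4f*, *Cd5l*, *Vsig4*, *Timd4* and *Marco*, and more of these than of *Trem2* and *Gpnmb*, it was at 154 CPM (131–181, 431 nuclei) and 40.9 CPM (30.6–53.5, 819 nuclei), a ratio of 0.265 (0.190–0.365). In the reverse set it had 1 UMI in 27 nuclei and 2 UMIs in 174, and in nuclei of neither set it was at 30.8 CPM (7 UMIs, 132 nuclei) and 13.3 CPM (7 UMIs, 448 nuclei). *Ccnd1* within the Kupffer set was at 110 and 64.8 CPM (0.591, 0.439–0.794). Both differences were thus nearly as large within this set, which was formed after seeing the data. Gated macrophages held 50% of the *Kif23* UMIs of macrophages, 41.8% in the library labelled Flox and 63.3% in the library labelled HKO. For the other cytokinesis genes outside the gate list the share ran from 58.1% for *Ect2* to 70.9% for *Anln*. For the mitosis genes outside it the share ran from 56.2% for *Bub1b* to 95.3% for *Aspm*, which had 4 UMIs in other macrophages.

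In endothelial nuclei 11 members had 50 or more UMIs, 0 higher by 1.5-fold (beside 4.72% of 6777 genes) and 1 lower (beside 8.76%), *Rrm1* at 38.6 and 25.7 CPM with an interval that held 1 (0.408–1.08). Of the member with most UMIs in each group, *Ccnd2* was at 260 and 198 CPM (0.763, 0.641–0.907), *Cdk2* at 65.5 and 60.2, *Pola1* at 44.8 and 53.0, *Ccna2* at 2.69 and 2.41, *Top2a* at 8.07 and 8.83 and *Kif20b* at 3.59 and 19.3 CPM (4 and 24 UMIs). *Ccnd1* was at 104 and 89.9 CPM (0.864, 0.661–1.13).

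In HSCs 9 members had 50 or more UMIs, 0 higher (beside 5.46% of 7642 genes) and 1 lower (beside 12.1%), *Cdk4* at 41.1 and 26.4 CPM (0.641, 0.429–0.953). *Ccnd2* was at 173 and 209 CPM (1.21, 1.03–1.42). *Anln* was at 10.4 and 12.0 CPM with 7 and 3 gated HSCs set apart. *Cdk2* was at 26.1 and 28.7 CPM, *Pola1* at 38.5 and 29.8, *Top2a* at 3.92 and 2.87 and *Ccna2* had 1 and 7 UMIs.

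In cholangiocytes 5 members had 50 or more UMIs, 1 higher (beside 12.0% of 3300 genes) and 2 lower (beside 11.0%). *Ccnd1* was at 178 and 292 CPM (1.64, 1.16–2.37), *Ccnd2* at 430 and 252 CPM (0.586, 0.452–0.762) and *Ccnd3* at 119 and 62.6 CPM (0.526, 0.315–0.894), from 117 and 415 nuclei. *Cdk6* and *Pola1* stayed within 1.5-fold, at 101 and 133 CPM and at 73.2 and 83.5 CPM. *Cdk2* had 7 and 27 UMIs, *Cenpe* 0 and 8, *Kif20b* 5 and 15 and *Ccna2* 1 and 2.

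T and NK and B nuclei held too few UMIs for most members. *Ccnd2* was at 799 and 794 CPM in T and NK nuclei (0.994, 0.759–1.30), *Cdk6* at 115 and 294 CPM there (2.56, 1.41–4.86, 16 and 43 UMIs) and *Ccnd3* at 217 and 226 CPM in B nuclei (1.04, 0.435–2.48). *Kif20b* was at 64.8 and 61.6 CPM, *Pola1* at 72.0 and 61.6, *Top2a* at 28.8 and 82.1 (4 and 12 UMIs) and *Cdk2* at 21.6 and 34.2 CPM in T and NK nuclei, where *Ccna2* had 1 and 0 UMIs. In B nuclei *Cdk2* had 5 and 4 UMIs, *Mcm6* 1 and 5, *Mki67* 1 and 1, *Kif20b* 1 and 2 and *Ccna2* 0 and 0. Of the 47 gene bodies, 12 overlapped another counted gene on the opposite strand, among them *Ccnd1*, *Cdk6*, *E2f8* and *Mcm7*, and 1, *Anln*, on its own strand. The strand setting of the counting is not given in the sources used here.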

How the data were processed

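Nuclei sorted from the pooled livers were sequenced with 10x Chromium 3' chemistry. The deposited values are raw UMI counts per gene and barcode, which the authors made with Cell Ranger 8.0.1 (submitters' processing notes) on the 10x mouse reference transcriptome (GRCm38), leaving out intronic reads. The authors' filters on genes and doublets were not applied to the deposited barcodes.

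Nuclei with under 300 genes were removed, and so were the barcodes with the highest Scrublet doublet scores (scanpy 1.11.5). How many to remove was set beforehand at 0.8% per 1000 nuclei, which came to 7.49% of Flox and 8.58% of HKO barcodes. These shares follow from the number of nuclei and are not results. Scrublet's own cutoff called 758 Flox and 560 HKO barcodes, beside 701 and 920 removed. A nucleus was given a type when that type had 3 or more UMIs from 2 or more markers and at least 2 times those of any other. Hepatocytes needed hepatocyte markers above 0.5% of UMIs, a limit set after seeing their distribution, and at most 1 marker UMI of any other type. UMIs were summed per gene, library and type (python 3.11.15, numpy 2.4.6, scipy 1.17.1, pandas 2.3.3, matplotlib 3.10.9). Intervals were exact (Poisson for CPM, Clopper-Pearson for shares, conditional binomial for ratios, 95%). Only the ratio interval was run on simulated data, with Poisson counts as the interval itself assumes. That run checks the calculation and cannot show coverage where UMIs cluster within nuclei. Log2 ratios used a pseudocount of 1 CPM. Ratios of 1.5-fold or more were counted for genes with 50 or more UMIs. For gated against other nuclei within a type, the 50 UMIs were required outside the gate, a filter set after seeing the data. With 1 library per genotype no test was possible, and intervals and limits of 3 UMIs cover counting error only.

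The members and lists were chosen with earlier results of these data known. Named were members in hepatocytes at 1.5-fold or more with an interval that left out 1, the 2 members per group with the highest pooled CPM there, 1 per group in each other type, and the 3 highest and 3 lowest other cell cycle genes. Alternatives covered the gate, typing, doublets, filters, pseudocount, fold and per-nucleus means.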

Additional observations from a re-analysis of the deposited data

Results flagged for a closer look

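*Ccnd1* differed between the libraries in opposite directions by cell type. Its ratio of HKO over Flox was 3.62 (3.26–4.02) in hepatocytes and 1.64 (1.16–2.37) in cholangiocytes, but 0.557 (0.430–0.721) in macrophages, and the intervals lay on opposite sides of 1. With 1 library per genotype, the difference between cell types was not tested.

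Among barcodes removed as doublets, which no comparison above used, 3.80% of 920 in the library labelled HKO (2.66–5.25%) and 0.856% of 701 in the library labelled Flox (0.315–1.85%) had 5 or more gate UMIs, a ratio of 4.44 (1.85–12.9). The kept nuclei of the library labelled HKO stood at 1.38%. How many barcodes were removed was set beforehand from the number of nuclei, and Scrublet's own cutoff called 758 Flox and 560 HKO barcodes. The share past the gate at that cutoff was not counted.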

How the results depend on the processing

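Of 154 alternative values for 18 results on groups, shares and counts, 139 stayed within the set limits, 15 moved and 0 changed direction. With a pseudocount of 5 CPM, 3 members were higher and 1 lower by 1.5-fold in hepatocytes outside the gate (10 and 3 otherwise), and the cytokinesis median log2 ratio was 0.46 (0.91 otherwise). With 20 or more UMIs the counts were 16 and 5, with no filter 19 and 5, and at 2-fold 4 and 0. With gated hepatocytes included, 18 members were higher and the mitosis median was 0.93 (0.21 otherwise). Members such as *Mki67*, with 29 UMIs outside the gate and 70 in gated hepatocytes, then passed the filter only through gated nuclei. That count and that median thus rest partly on the nuclei the gate selected. No share of all genes was counted at any of these settings, so the counts stand without a background. Under the relative hepatocyte rule, chosen after seeing the data, the G1 median was 0.17 (0.30 otherwise). In the library labelled HKO alone, 4 members were highest in hepatocytes (2 otherwise). With 10 or more gate UMIs, also chosen after seeing the data, replication genes held 59.1% in gated hepatocytes and 35% in gated macrophages. Of 203 values for 20 single members, 195 stayed, 8 moved and 0 changed direction. Leaving out a replicate was not possible with 1 library per genotype. No paired analysis was possible because each genotype had 1 library, numbered 1 in the labels. Depth limits the late genes most, since 17 of 47 members had under 50 UMIs in hepatocytes outside the gate, and the shallower library labelled HKO limits the smaller cell types.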
